A study of Mus musculus with 20 samples.

Results

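The nitric oxide synthases Nos1, Nos2 and Nos3, the arginases Arg1 and Arg2, the arginine-synthesising enzymes Ass1 and Asl and the methylarginine hydrolases Ddah1 and Ddah2 were examined in the mouse ovary. These 9 genes were taken by symbol, were each matched to 1 Ensembl identifier, and are 9 of the 54838 genes listed in the count files. Ovaries came from 20 female mice at 77 days of age, with 5 animals for each of the 4 combinations of line (ctrl or FL1) and cycle stage (estrus or diestrus). FL1 is the Dummerstorf high-fertility line, bred over many generations for large and heavy litters, and ctrl is an unselected line, labelled wild type, from the same outbred founder stock. Each library is the ovarian RNA of 1 animal, and the stage was read from vaginal smears. Both lines are outbred and each stands for 1 breeding history, so selection and drift between the lines cannot be told apart.

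Nitric oxide synthases split L-arginine into nitric oxide and citrulline. Nos1 is the neuronal, Nos2 the inducible and Nos3 the endothelial enzyme. Nitric oxide activates soluble guanylate cyclase, which makes cyclic GMP, and in the ovary it is known for a part in follicle growth, ovulation and blood flow to the corpus luteum. Arginases turn the same substrate into ornithine and urea, Ass1 and Asl rebuild arginine from citrulline, and Ddah1 and Ddah2 break down asymmetric dimethylarginine, a natural inhibitor of the synthases.

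Libraries held between 5991223 and 10352718 reads assigned to genes. Levels are given as CPM, the reads of a gene relative to all reads of its library after TMM scaling, and fold changes as log2FC with the standard error (SE). Since the reads come from the 3′ end of each transcript, a level is compared between libraries and not between genes. The ovarian identity of the samples was visible in all libraries, with summed levels of 6 oocyte markers between 120.7 and 382 CPM and of 7 luteal markers between 15841 and 50206 CPM. The 3 oviduct markers summed to at most 4.65 CPM, but in estrus lay at 0 to 1.82 CPM in ctrl and 1.92 to 4.65 CPM in FL1. The 5 fat markers summed to 42.0 to 76.5 CPM in estrus and 22.2 to 45.7 CPM in diestrus of FL1. In ctrl the fat markers summed to 20.9 to 72.9 CPM in estrus and 21.2 to 49.5 CPM in diestrus. The part of such attached tissue in the results was not tested. The library of ctrl estrus replicate 5 stood apart from its group. Its mean correlation with the other ctrl estrus libraries was 0.937, against 0.954 to 0.971 for the other 19 libraries with their own groups, and its 8 granulosa cell markers summed to 1287 CPM, the lowest of all 20 libraries. The Nos2 line differences and the Nos3 stage difference in ctrl are given with and without it. Other results of ctrl in estrus include it unless stated. In whole ovaries, fewer cells of a type and less RNA per cell cannot be told apart.

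Of the 7 members tested between the lines in diestrus, Nos2 was the 1 called, where 4.11% of 13259 genes were, and it was 1.92-fold lower in FL1. Nos1 and Arg1 were too low to be tested there. Between the stages, 4 of the 9 genes changed in FL1, where 15.9% of 13350 genes were called. Arg1 and Ddah2 were higher in estrus, where 7.42% of all genes were, and Nos3 and Ddah1 were lower, where 8.49% were. Arg1 passed the filter on low counts there mainly through the estrus libraries in which it was high. In the ctrl line edgeR called none of the 8 members tested between the stages, where 2.85% of all genes were called, and none of the 9 in the line by stage interaction, where 0.0565% were.

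**Figure D1:**
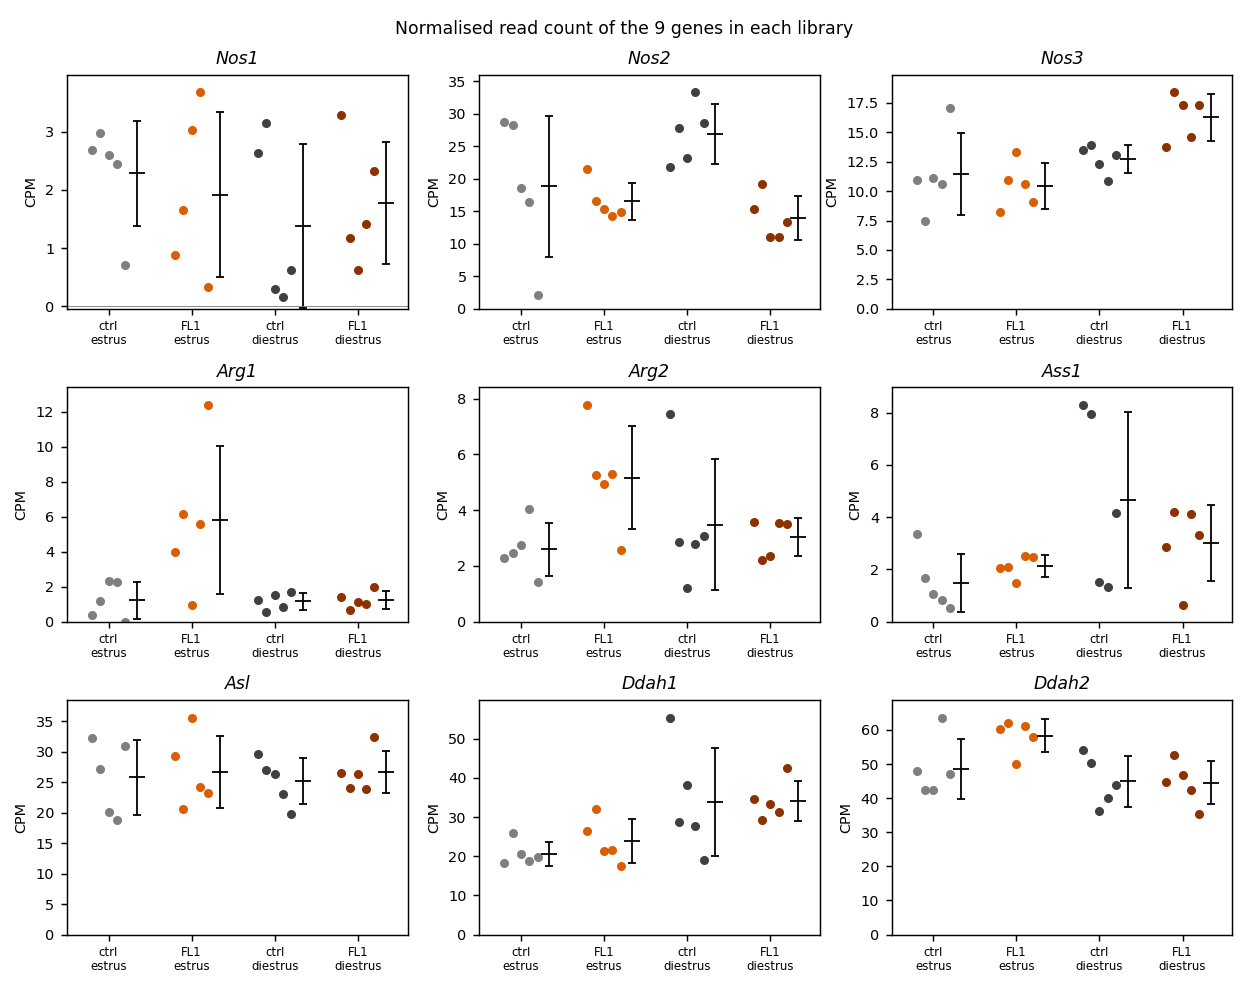
Each panel plots the normalised read count (CPM, linear axis) of 1 gene in the 20 libraries, by line and stage, with the group mean and SD as a bar beside the 5 points of each group. The Nos2 points of FL1 in diestrus all lie under those of ctrl in diestrus, and the lowest Nos2 point is ctrl estrus replicate 5 at 2.11 CPM.

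Nos2 (ENSMUSG00000020826, GRCm38 chr11:78920787-78960254, plus strand) encodes the synthase that is made on demand in macrophages and other stimulated cells. In diestrus the ctrl ovaries held 21.8, 27.8, 23.3, 33.4 and 28.6 CPM. The FL1 ovaries in diestrus held 15.3, 19.2, 11.0, 11.0 and 13.3 CPM. The highest FL1 ovary lay under the lowest ctrl ovary. Group means were 27.0 ± 4.60 CPM in ctrl and 14.0 ± 3.43 CPM in FL1 (SD, n = 5 each), a log2FC of -0.94 (SE 0.18, edgeR adjusted p = 0.00782). Of all genes tested in this comparison, 1.82% were called as lower in FL1. Groups without overlap were found for 5.45% of all genes tested. Without overlap the exact two-sided permutation test always gives the smallest p it allows, 0.00794 unadjusted, so it adds no support of its own. The call was kept when any of the 10 libraries was left out, with log2FC between -1.09 and -0.85. It was lost when all 20 libraries shared 1 estimate of the spread (log2FC -0.94, edgeR adjusted p = 0.149), and it was kept in the same fit of 19 libraries without ctrl estrus replicate 5 (log2FC -0.94, edgeR adjusted p = 0.00419). Over the 8 alternatives other than leaving out each library in turn, the fit of 19 libraries among them, the adjusted p ran from 7.65e-05 (DESeq2) to 0.149.

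In estrus, Nos2 levels in ctrl were 28.8, 28.3, 18.5, 16.4 and 2.11 CPM. The last value is 12 reads in ctrl estrus replicate 5. In FL1 in estrus, Nos2 lay at 21.4, 16.6, 15.4, 14.3 and 15.0 CPM. The ctrl values reached above and below all FL1 values, with means of 18.8 ± 10.9 and 16.6 ± 2.86 CPM (SD, n = 5 each). The line difference in estrus did not pass the test (log2FC -0.19, SE 0.41, edgeR adjusted p = 0.872). Without ctrl estrus replicate 5 the ctrl mean was 23.0 CPM and the log2FC was -0.47 (edgeR adjusted p = 0.241). Over both stages the log2FC was -0.57 with all libraries (SE 0.25, edgeR adjusted p = 0.207) and -0.72 without that library, and the latter passed the test (edgeR adjusted p = 0.00231). The interaction, which asks whether the line difference differs between stages, was 0.75 (SE 0.48, edgeR adjusted p = 0.563). With 1 library left out it ran from 0.47 to 0.95 and was not called. Nos2 thus had its highest mean in ctrl in diestrus, followed by ctrl in estrus, FL1 in estrus and FL1 in diestrus, and no neighbours in this order differed beyond their spread. Between the stages Nos2 did not pass the test in either line, with a log2FC of -0.52 in ctrl (SE 0.41, edgeR adjusted p = 0.627) and 0.24 in FL1 (SE 0.18, edgeR adjusted p = 0.417). With 1 library left out the value in ctrl ran from -0.72 to -0.24 and was not called.

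**Figure D2:**
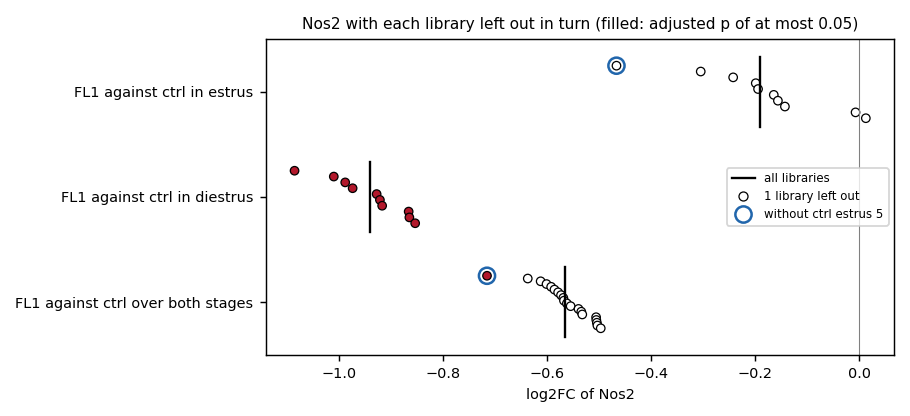
The log2FC of Nos2 (horizontal axis, FL1 against ctrl) is plotted with each library left out in turn for 3 comparisons, with filled points where the adjusted p is at most 0.05, black lines at the value of all libraries and a blue ring around the value without ctrl estrus replicate 5. All 10 points of the diestrus comparison are filled, none of the estrus comparison are, and over both stages the ringed point is the 1 filled point.

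Cell markers bear on the Nos2 difference in diestrus as follows. Of 8 macrophage markers, 7 were tested, 3 with a positive and 4 with a negative log2FC and a median of -0.020. Of these, 2 were called, both higher in FL1 (Lyz2 and Cd68). The markers summed to 183 to 336 CPM in ctrl and 248 to 555 CPM in FL1, and Lyz2, with means of 93.8 CPM in ctrl and 233 CPM in FL1, made up a large part of these sums. Over both stages, Csf1r, the receptor of a macrophage growth factor, was called lower in FL1 (log2FC -0.57, SE 0.14, edgeR adjusted p = 0.0157). Of 8 granulosa cell markers, 7 were tested and 1, Foxl2, was called, also higher in FL1, with sums of 2555 to 3975 CPM in ctrl and 2570 to 3923 CPM in FL1. Nos2 per 1000 CPM of granulosa markers was 5.48 to 11.7 in ctrl and 2.81 to 5.98 in FL1, and these ranges overlapped. Per 1000 CPM of macrophage markers, a sum that rests largely on Lyz2, Nos2 was 85.0 to 182 in ctrl and 24.0 to 60.3 in FL1, without overlap. The 6 neutrophil markers summed to at most 5.83 CPM in diestrus, with Csf3r, Cxcr2, Mmp8 and Retnlg at 0 in at least 1 library of each line. Of oocyte, theca and stroma, and surface epithelium markers, 6 of 6, 5 of 6 and 4 of 5 had a negative log2FC. Their medians were -0.28, -0.24 and -0.23, and none was called. Luteal markers were positive in 5 of 7 and endothelial markers in 5 of 8, each with 1 called higher in FL1. Blood markers were positive in 4 of 4 and smooth muscle markers in 3 of 5, with none called. The part of these cell types in the Nos2 result was not tested further.

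Nos3 (ENSMUSG00000028978, chr5:24364810-24384474, plus strand) encodes the synthase of the vessel wall. In FL1, the estrus ovaries held 8.23, 10.9, 13.3, 10.6 and 9.09 CPM. The diestrus ovaries of FL1 held 13.7, 18.4, 17.3, 14.6 and 17.3 CPM. All diestrus values were above all estrus values. The means were 10.4 ± 1.95 CPM in estrus and 16.3 ± 2.01 CPM in diestrus (SD, n = 5 each), a log2FC of -0.64 for estrus against diestrus (SE 0.17, edgeR adjusted p = 0.0150). Groups without overlap were found for 12.2% of all genes in this comparison, and the exact permutation p was again fixed by this at 0.00794 (unadjusted). The call held in all 10 fits with 1 library left out (log2FC -0.74 to -0.56).

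In ctrl, Nos3 lay at 11.0, 7.45, 11.1, 10.6 and 17.0 CPM in estrus and at 13.5, 14.0, 12.3, 10.9 and 13.1 CPM in diestrus. The estrus values spread around the diestrus values, with the highest estrus value in ctrl estrus replicate 5. The stage difference in ctrl did not pass the test (log2FC -0.16, SE 0.21, edgeR adjusted p = 0.786), also without that library (log2FC -0.34, edgeR adjusted p = 0.335). Whether the stage difference differed between lines was tested by the interaction, which was -0.48 (SE 0.26, edgeR adjusted p = 0.479). Over both lines, Nos3 was lower in estrus (log2FC -0.40, SE 0.14, edgeR adjusted p = 0.0493). This call lay at the threshold and was kept in 4 of the 20 fits with 1 library left out, namely without ctrl estrus replicate 5, FL1 estrus replicate 3, ctrl diestrus replicate 3 or ctrl diestrus replicate 4. Without ctrl estrus replicate 5 the log2FC was -0.50 (edgeR adjusted p = 0.00407). The line difference in diestrus, with FL1 above ctrl in 24 of 25 pairs of ovaries, had a log2FC of 0.35 and failed the correction over all genes (SE 0.14, edgeR adjusted p = 0.214). In estrus the line difference was -0.13 (SE 0.22, edgeR adjusted p = 0.834). By its means Nos3 was highest in FL1 in diestrus, then in ctrl in diestrus, ctrl in estrus and FL1 in estrus, and the 3 lower groups lay within their spread.

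The endothelial markers moved in the same comparison as Nos3. Of 8 such markers, 6 were called lower in estrus than in diestrus in FL1 and all 8 had a negative log2FC, with a median of -0.64. Their summed level was 283 to 366 CPM in FL1 in estrus and 455 to 566 CPM in FL1 in diestrus. Nos3 per 1000 CPM of these markers was 31.5 ± 4.27 in estrus and 31.5 ± 5.58 in diestrus of FL1 (SD, n = 5 each). The ratio in ctrl was 28.0 ± 4.77 in estrus and 28.9 ± 5.72 in diestrus. Relative to the endothelial markers, the 4 group means of Nos3 thus differed by less than the SD within a group. Of the other marker lists in this comparison, luteal cells had 6 of 7 and blood 4 of 4 markers called lower in estrus, with medians of -0.86 and -0.99. Granulosa cells had 3 of 7 tested called lower. Surface epithelium had 4 of 5 markers called higher, with a median of 1.12, smooth muscle 3 of 5, and theca and stroma 4 of 6, with 1 lower. The part of these cell types in the Nos3 result was not tested further.

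**Figure D3:**
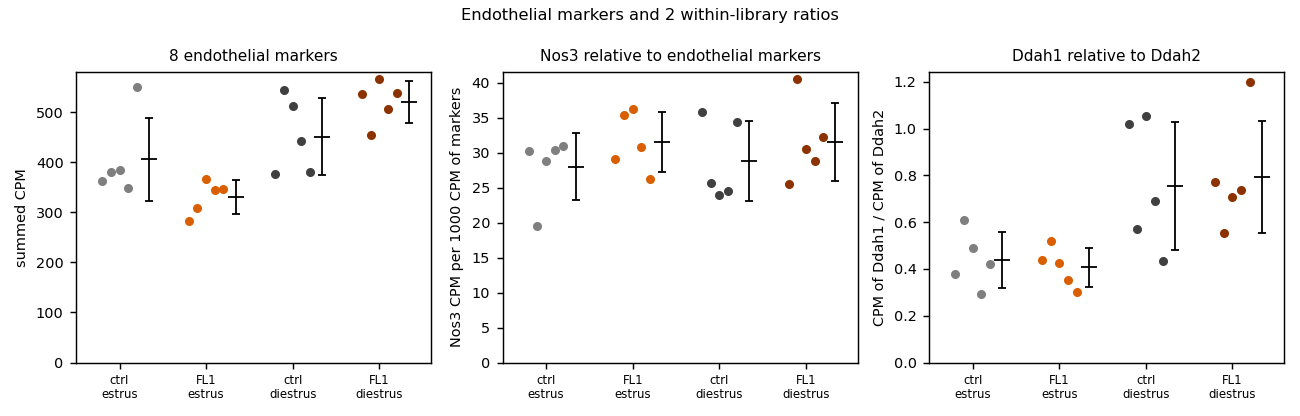
The panels plot, for each of the 20 libraries with group mean and SD, the summed CPM of 8 endothelial markers, the CPM of Nos3 per 1000 CPM of these markers, and the CPM of Ddah1 divided by that of Ddah2. In FL1 the marker sum is lower in all 5 estrus libraries than in all 5 diestrus libraries, the Nos3 ratio has the same mean of 31.5 in both stages, and the ratio of Ddah1 to Ddah2 is at most 0.518 in estrus and at least 0.553 in diestrus.

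Nos1 (ENSMUSG00000029361, chr5:117781032-117958840, plus strand), the neuronal enzyme, was close to the lower limit of detection. It had 1 to 29 reads per library, with at most 3 reads in 3 libraries, and was too low to be tested between the lines in diestrus. Its levels were 0.70 to 2.98 CPM in ctrl in estrus, 0.32 to 3.69 CPM in FL1 in estrus, 0.16 to 3.15 CPM in ctrl in diestrus and 0.63 to 3.29 CPM in FL1 in diestrus. All 4 groups overlapped. The largest of its 6 tested differences in size was a log2FC of 0.67 for estrus against diestrus in ctrl (SE 0.64, edgeR adjusted p = 0.697).

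**Figure D4:**
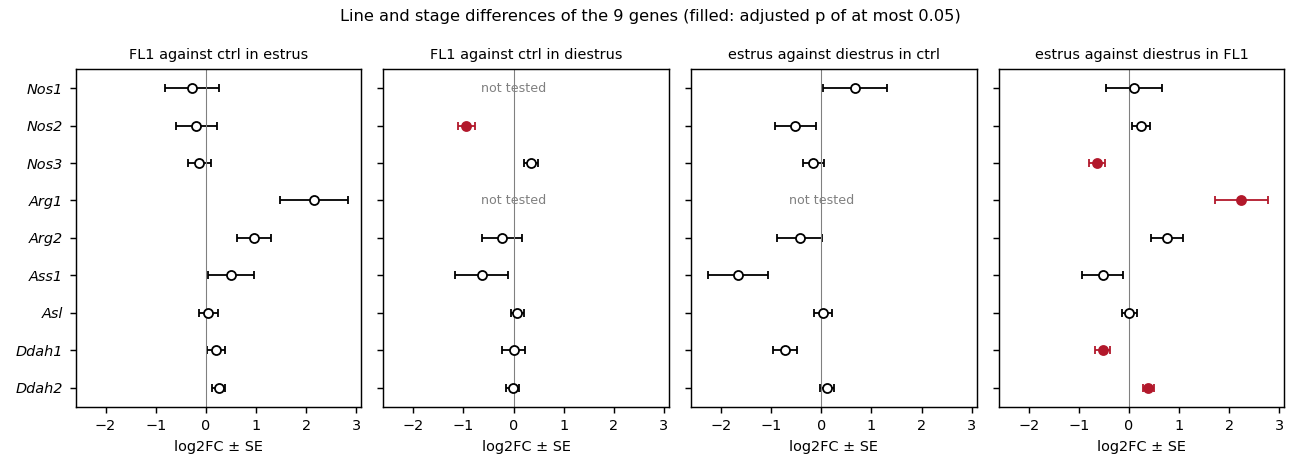
The log2FC with its SE (horizontal axis) is plotted for the 9 genes in the 4 comparisons of line and stage, filled where the adjusted p is at most 0.05. Filled points are Nos2 between the lines in diestrus, and Nos3, Arg1, Ddah1 and Ddah2 between the stages in FL1.

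Arg1 (ENSMUSG00000019987, chr10:24915221-24927484, minus strand) is the cytosolic arginase of the liver and of alternatively activated macrophages. FL1 in estrus held 3.97, 6.15, 0.94, 5.61 and 12.4 CPM. FL1 in diestrus held 1.43, 0.65, 1.10, 0.99 and 2.00 CPM. Of the estrus ovaries 4 lay above all diestrus ovaries, while FL1 estrus replicate 3 lay among them. The means were 5.81 ± 4.20 and 1.24 ± 0.51 CPM (SD, n = 5 each), and the log2FC was 2.24 (SE 0.53, edgeR adjusted p = 0.00884). The call held with each of the 10 libraries left out (log2FC 1.74 to 2.53) and was lost with limma-voom (log2FC 1.83, adjusted p = 0.119), the highest of 7 alternatives that reached down to 5.44e-05. FL1 in diestrus held 5 to 12 Arg1 reads per library, so Arg1 entered the test mainly through the estrus libraries in which it was high. The call is therefore no independent support for a stage difference.

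In ctrl, Arg1 was at 0.40, 1.16, 2.35, 2.26 and 0 CPM in estrus and at 1.23, 0.55, 1.50, 0.82 and 1.69 CPM in diestrus. These ranges overlap those of FL1 in diestrus, so FL1 in estrus was the 1 group with levels above 2.35 CPM. Both diestrus groups had too few reads for a test between the lines in diestrus or between the stages in ctrl. Between the lines in estrus the log2FC was 2.15 (SE 0.68, unadjusted p = 0.00663 in edgeR's fit over all genes), which did not pass the correction over all genes (edgeR adjusted p = 0.130). FL1 was above ctrl in 22 of 25 pairs of estrus ovaries. The difference was called with DESeq2 (log2FC 2.21, adjusted p = 0.0238), without the filter on low counts (log2FC 2.15, edgeR adjusted p = 0.0334) and in 1 fit of all 20 libraries (log2FC 2.16, edgeR adjusted p = 0.0424), and in the other alternatives the adjusted p reached 0.283. The interaction was 2.08 (SE 0.89, edgeR adjusted p = 0.353). Of 7 macrophage markers tested between the lines in estrus, 5 had a negative log2FC, with a median of -0.34, and 1, Lyz2, was called higher in FL1. The 8 markers summed to 259 to 386 CPM in ctrl and 311 to 548 CPM in FL1 in estrus. The 5 surface epithelium markers all had a positive log2FC, 1 of them called, and summed to 73.1 to 103 CPM in ctrl and 105 to 188 CPM in FL1 in estrus, where the ranges did not overlap. Oocyte, blood and tested granulosa markers had a positive log2FC in 6 of 6, 4 of 4 and 6 of 7, with none called. Endothelial, theca and stroma, and smooth muscle markers had a negative log2FC in 7 of 8, 5 of 6 and 4 of 5, with none called. The oviduct marker sums of the lines did not overlap in estrus either. The share of such separation among other sums was not taken. The part of these cell types in the Arg1 levels was not tested.

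Arg2 (ENSMUSG00000021125, chr12:79130777-79156301, plus strand) is the mitochondrial arginase. FL1 in estrus held 7.78, 5.25, 4.92, 5.31 and 2.57 CPM, and ctrl in estrus 2.28, 2.48, 2.74, 4.05 and 1.41 CPM. FL1 was above ctrl in 23 of 25 pairs. The means were 5.17 ± 1.85 and 2.59 ± 0.96 CPM (SD, n = 5 each), with a log2FC of 0.96 that failed the correction (SE 0.35, edgeR adjusted p = 0.187). In diestrus the lines lay at 1.20 to 7.45 CPM in ctrl and 2.22 to 3.58 CPM in FL1 and overlapped fully. Between the stages in FL1 the log2FC was 0.75 (SE 0.32, edgeR adjusted p = 0.120). It passed the test in 1 of the 10 fits with a library left out, that without FL1 estrus replicate 5 (log2FC 0.93, edgeR adjusted p = 0.0457). The interaction was 1.19 (SE 0.55, edgeR adjusted p = 0.400). Arg2 overlaps the 3′ end of Vti1b on the other strand, which had 15498 reads over the 20 libraries, and the strand setting of the counting is not given in the sources used here. Reads of these genes may therefore not be fully separated.

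In estrus edgeR called no member between the lines, where 2.33% of 13374 genes were called, and DESeq2 called 1, Arg1. At an unadjusted p under 0.05, the edgeR test found 2 of 9 members, Arg1 and Arg2. The share of all genes at that threshold was not taken. This count and the later ones at an unadjusted p are therefore not read as results about the genes. The estrus and diestrus comparisons of a line share libraries with the line comparisons, so these results are not independent of each other.

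Ass1 and Asl, which act in sequence to make arginine, showed unequal spreads. Ass1 (ENSMUSG00000076441, chr2:31470207-31520672, plus strand), which joins citrulline and aspartate, was measured in ctrl in diestrus at 8.30, 7.93, 1.50, 1.32 and 4.15 CPM. Levels in ctrl in estrus were 3.35, 1.65, 1.04, 0.85 and 0.53 CPM. The log2FC of estrus against diestrus in ctrl was -1.66 and did not pass the test (SE 0.60, edgeR adjusted p = 0.173). FL1 lay between 1.47 and 2.51 CPM in estrus and between 0.63 and 4.18 CPM in diestrus, with a log2FC of -0.52 (SE 0.41, edgeR adjusted p = 0.423). Over both lines the log2FC of Ass1 was -1.08 (SE 0.39, edgeR adjusted p = 0.0633). With DESeq2 this difference was called (log2FC -1.09, adjusted p = 0.0377), and in the other alternatives the adjusted p reached 0.144. It also passed the edgeR test without ctrl estrus replicate 1, ctrl diestrus replicate 3, ctrl diestrus replicate 4 or FL1 diestrus replicate 3 (log2FC -1.26 to -1.17). Between the lines the log2FC was 0.50 in estrus (SE 0.45) and -0.64 in diestrus (SE 0.53), neither past the test.

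Asl (ENSMUSG00000025533, chr5:130011258-130029247, minus strand), which splits argininosuccinate into arginine and fumarate, was even across the groups. Group means were 25.8 ± 6.18 CPM in ctrl in estrus, 26.6 ± 5.93 CPM in FL1 in estrus, 25.2 ± 3.80 CPM in ctrl in diestrus and 26.7 ± 3.47 CPM in FL1 in diestrus (SD, n = 5 each). All ranges overlapped. The log2FC in the 4 comparisons of groups ran from 0.0018 to 0.076, with SEs of 0.13 to 0.19.

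Ddah1 (ENSMUSG00000028194, chr3:145758675-145894277, plus strand) was lower in estrus than in diestrus. In ctrl it lay at 18.2, 25.8, 20.6, 18.7 and 19.9 CPM in estrus and at 55.4, 28.7, 38.1, 27.6 and 19.1 CPM in diestrus. In FL1 it lay at 26.4, 32.1, 21.4, 21.5 and 17.5 CPM in estrus and at 34.5, 29.2, 33.2, 31.3 and 42.5 CPM in diestrus. Estrus was above diestrus in 3 of 25 pairs of ovaries in ctrl and in 2 of 25 in FL1. Over both lines the log2FC was -0.62 (SE 0.15, edgeR adjusted p = 0.00524), and this call held in all 20 fits with 1 library left out (log2FC -0.69 to -0.49). Over both lines, 2 members were called, both lower in estrus, where 14.8% of 14154 genes were called in either direction and 7.09% as lower.

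Within FL1, the log2FC of Ddah1 was -0.53 (SE 0.16, edgeR adjusted p = 0.0305). This call was lost in 6 of 10 fits, without FL1 estrus replicate 3, 4 or 5 or FL1 diestrus replicate 1, 3 or 5, at adjusted p of up to 0.0847 in edgeR, and in the fit of all 20 libraries (edgeR adjusted p = 0.119). Within ctrl the log2FC of -0.72 was not called (SE 0.24, edgeR adjusted p = 0.139), and no member was, where 2.85% of 13334 genes were called. In ctrl, the edgeR test had 2 members, Ddah1 and Ass1, at an unadjusted p under 0.05, and DESeq2 and limma-voom called 0. Ddah1 in ctrl was called in the fit of all 20 libraries (edgeR adjusted p = 0.0433) and without ctrl diestrus replicate 5 (log2FC -0.87, edgeR adjusted p = 0.0454). The interaction of Ddah1 was 0.20 (SE 0.30, edgeR adjusted p = 0.839). Between the lines the levels differed by a log2FC of 0.20 in estrus (SE 0.17) and 0.00065 in diestrus (SE 0.22). The luteal markers called lower in estrus were 6 of 7 in FL1, where 8.49% of all genes were called lower. In ctrl 1 of 7 was called lower, where 2.85% of all genes were called in either direction. The log2FC was negative for 7 of 7 luteal markers in ctrl (median -0.71) and for 6 of 7 in FL1 (median -0.86). Ddah1 per 1000 CPM of luteal markers was 0.937 ± 0.308 in ctrl and 0.988 ± 0.474 in FL1 in estrus (SD, n = 5 each). In diestrus this ratio was 0.893 ± 0.585 in ctrl and 0.851 ± 0.172 in FL1. The part of luteal cells in the Ddah1 result was not tested.

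Ddah2 (ENSMUSG00000007039, chr17:35059035-35062095, plus strand) went the other way in FL1. Its levels in FL1 were 60.4, 61.9, 50.1, 61.2 and 57.9 CPM in estrus. In diestrus they were 44.8, 52.7, 46.9, 42.5 and 35.5 CPM. Estrus was above diestrus in 24 of 25 pairs, and the exception was FL1 estrus replicate 3 against FL1 diestrus replicate 2. The means were 58.3 ± 4.85 and 44.5 ± 6.30 CPM (SD, n = 5 each), a log2FC of 0.39 (SE 0.11, edgeR adjusted p = 0.0229). The call was lost in 4 of 10 fits, without FL1 estrus replicate 2 or 4 or FL1 diestrus replicate 4 or 5 (log2FC 0.32 to 0.37, edgeR adjusted p of up to 0.0549), and in the fit of all 20 libraries (edgeR adjusted p = 0.0563). In ctrl, Ddah2 was at 42.3 to 63.6 CPM in estrus and 36.2 to 54.2 CPM in diestrus (log2FC 0.11, SE 0.15, edgeR adjusted p = 0.792). Over both lines the log2FC was 0.25 (SE 0.09, edgeR adjusted p = 0.0759).

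As Ddah1 and Ddah2 share a substrate, their ratio was taken within each library. In FL1 it was 0.407 ± 0.083 in estrus and 0.793 ± 0.241 in diestrus (SD, n = 5 each), and the ranges of 0.303 to 0.518 and 0.553 to 1.20 did not overlap. In ctrl it was 0.439 ± 0.118 in estrus and 0.754 ± 0.274 in diestrus, with ranges of 0.294 to 0.609 and 0.435 to 1.05. The ctrl ranges overlapped. In FL1 both genes were called in opposite directions in these same libraries, so the separation of the ratio adds no support of its own. The share of such separation among ratios of other genes was not taken. The ratio is of 3′ read counts and does not show which transcript was more abundant.

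Taking the members as a group, the median log2FC was -0.018 over the 7 tested members between the lines in diestrus, where the median of all genes was -0.0093. It was 0.20 between the lines in estrus, against -0.0052 for all genes. Between the stages it was -0.30 over 8 tested members in ctrl and 0.11 over 9 in FL1, against -0.0058 and 0.0071 for all genes. In the fits of all 20 libraries it was 0.10 between the lines, 0.016 between the stages and 0.27 in the interaction, against -0.0043, 0.000031 and 0.0085 for all genes. Over both stages no member was called between the lines, where 6.74% of 14154 genes were called, and edgeR gave 2 members, Nos2 and Arg1, an unadjusted p under 0.05. No member was called in the interaction, where 0.0565% of genes were, and edgeR gave Arg1 and Arg2 an unadjusted p under 0.05. DESeq2 and limma-voom likewise called 0 members in both.

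The genes around these enzymes were covered by 8 lists with 78 genes. None of the 66 genes tested was called between the lines in diestrus by edgeR, which gave 9 an unadjusted p under 0.05, and DESeq2 called 2 and limma-voom 0. Over both stages 3 of 68 were called between the lines, 1 higher and 2 lower in FL1, beside 6.74% of all 14154 genes tested. Over both lines 12 of 68 were called between the stages, 7 higher and 5 lower in estrus, beside 14.8% of all genes tested. The median log2FC of the 68 genes was 0.022 in the stage comparison and -0.013 in the line comparison.

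In a list of 12 partners and relatives of the synthases, Por was lower in FL1. It is a flavoprotein reductase whose domain plan the synthases share, and was listed for that likeness and not as a partner. Its means were 185 ± 29.5 CPM in ctrl and 114 ± 22.4 CPM in FL1 in estrus, and 145 ± 18.0 and 114 ± 13.6 CPM in diestrus (SD, n = 5 each). Over both stages the log2FC was -0.52 (SE 0.10, edgeR adjusted p = 0.00152). Nostrin, which binds the endothelial synthase and takes part in its trafficking, was lower in estrus with a log2FC of -0.94 over both lines (SE 0.18, edgeR adjusted p = 0.00095). Its means were 6.09 ± 1.78 CPM in ctrl and 5.29 ± 1.66 CPM in FL1 in estrus, and 11.8 ± 4.11 and 10.2 ± 1.89 CPM in diestrus. Dlg4, a scaffold that anchors the neuronal synthase, was higher in estrus over both lines (log2FC 0.54, SE 0.13, edgeR adjusted p = 0.00703). Within a line, Dlg4 was called in ctrl (log2FC 0.80, edgeR adjusted p = 0.0274) and not in FL1, and its interaction was not called.

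Of the 7 genes for the synthase cofactor tetrahydrobiopterin, Gch1, the rate-limiting enzyme, was called. It was lower in estrus over both lines (log2FC -0.63, SE 0.13, edgeR adjusted p = 0.00177). Its means were 118 ± 29.3 CPM in ctrl and 127 ± 22.1 CPM in FL1 in estrus and 221 ± 45.0 and 162 ± 29.4 CPM in diestrus. Within a line, Gch1 was called in ctrl (log2FC -0.91, edgeR adjusted p = 0.0188) and not in FL1, and its interaction was not called. Of 6 genes that remove nitric oxide or its adducts, Cygb, a globin that oxidises nitric oxide, was lower in FL1 over both stages (log2FC -0.50, SE 0.09, edgeR adjusted p = 0.00121) and higher in estrus over both lines (log2FC 0.59, SE 0.09). Its means ran from 541 ± 103 CPM in ctrl in estrus to 254 ± 28.2 CPM in FL1 in diestrus. Akr1a1, a reductase of S-nitrosylated coenzyme A, was lower in estrus (log2FC -0.33, SE 0.08, edgeR adjusted p = 0.0103). None of the 13 genes of the cyclic GMP path was called in any of the 7 comparisons by edgeR, DESeq2 or limma-voom, and 4 had an unadjusted p under 0.05 in at least 1 edgeR test. The soluble guanylate cyclase subunit Gucy1a1 had the smallest p between the lines in diestrus (log2FC -0.18, SE 0.09, edgeR adjusted p = 0.298). A further list held 10 genes, the methyltransferases that form methylarginines and Agxt2, which breaks dimethylarginine down. Of these, edgeR, DESeq2 and limma-voom called 0 and edgeR gave 1 an unadjusted p under 0.05, with Prmt9 lowest in p between the lines in diestrus (log2FC -0.26, SE 0.15, edgeR adjusted p = 0.394).

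On the side of arginine use, 1 of 7 transporter genes was called. The cationic amino acid carrier Slc7a2 was higher in estrus over both lines (log2FC 0.59, SE 0.18, edgeR adjusted p = 0.0277). Of 16 genes of ornithine and polyamine metabolism, Odc1, which turns ornithine into putrescine, was higher in estrus (log2FC 0.53, SE 0.15, edgeR adjusted p = 0.0167). Azin1, an activator of that enzyme, was lower (log2FC -0.33, SE 0.06, edgeR adjusted p = 0.00068). Within FL1, Odc1 was higher in estrus by a log2FC of 0.77 (edgeR adjusted p = 0.0135). Its means in FL1 were 31.9 ± 8.83 CPM in estrus and 18.6 ± 4.13 CPM in diestrus (SD, n = 5 each). Of the 16 genes, 2 were called higher and 2 lower in estrus within FL1, where 15.9% of all genes were called. A link of these genes to the Arg1 levels was not tested. Agmat, annotated as agmatinase, was lower in estrus at levels of 0.38 to 4.67 CPM (log2FC -1.04, SE 0.33, edgeR adjusted p = 0.0320). Of 7 urea cycle and creatine genes, Nags, which makes the activator of the first urea cycle step, and Gatm, which starts creatine synthesis from arginine, were higher in estrus (log2FC 0.90, SE 0.19, edgeR adjusted p = 0.00172, and log2FC 0.54, SE 0.17, edgeR adjusted p = 0.0320).

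The genes with profiles most like the members were sought among 14154 genes by Pearson's r of log2 CPM over the 20 libraries. For Nos2 they were Unc50, Thumpd2 and Eloc, with r of 0.903, 0.900 and 0.894. Without ctrl estrus replicate 5 these fell to 0.653, 0.642 and 0.646, so the likeness rested to a large part on that library. For Nos3 they were Clip1, Sptbn1 and Dusp3 (r of 0.852, 0.828 and 0.815), and without the library farthest from the median the first was 0.864. For Arg1 they were Nfxl1, Rfc4 and Psma1 (r of 0.896, 0.870 and 0.843). For Ddah1 they were Pdlim1, Got1 and the noncoding 4930581F22Rik (r of 0.810, 0.807 and 0.800), and for Ddah2 Rbpms2, Mrps35 and Eif3i (r of 0.807, 0.804 and 0.804). The libraries share line, stage and cell makeup, so these values describe profiles only. Among the members themselves, 36 pairs were compared by the deviations of their libraries from the group means, and none passed a permutation test after adjustment (smallest adjusted p = 0.205).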

How the data were processed

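Total RNA of 20 ovaries was sequenced with the QuantSeq 3′ mRNA-Seq kit on an Illumina HiSeq. The authors aligned trimmed reads to GRCm38 with STAR and deposited raw read counts per Ensembl gene for each animal. The counting tool and its strand setting are not given in the sources used here, and the labels also name Cuffdiff. The source label reads FL1 for all libraries, so groups were taken from the titles. Symbols and positions came from GENCODE M21 (GRCm38), which held 54809 of the 54838 genes, and each position printed is that of the whole gene.

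The main test was edgeR's quasi-likelihood test (edgeR 4.0.16, R 4.3.3) on the deposited counts with TMM scaling and filterByExpr (minimum count 10), with the Benjamini-Hochberg adjustment over all genes tested and calls at an adjusted p of at most 0.05. Comparisons within a line or stage used the 10 libraries concerned, and main effects and the interaction used all 20. Single genes were also compared by an exact two-sided permutation test on CPM. Values are mean ± SD. The scripts were tested on simulated data. Alternatives were RLE scaling, other filters, DESeq2 1.42.0, limma-voom 3.58.1, a replicate block, shared fits and leaving out each library. The fit of 19 libraries was chosen after seeing the data.

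The 9 genes, the lists and the markers were chosen with earlier results of these data known, so they are no independent support. The named pathway genes are at most 3 called genes per list, by smallest adjusted p, or the gene with the smallest p between the lines in diestrus where none was called. The 3 most alike genes were sought for Nos2 and for each member called in any comparison. Libraries came from separate animals. Between replicates, counts differed by more than sampling noise (chi-square per gene of 6.32 to 46.6 over 40 pairs). At 5991223 to 10352718 reads per library, genes with few reads, such as Nos1, Arg1, Arg2 and Ass1, were measured with low precision.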

Additional observations from a re-analysis of the deposited data

Results flagged for a closer look

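A single library lay far from the others of its group in 2 of the 36 groups checked (9 genes in 4 groups of 5 libraries), and chance gives about 1 in 20 such groups. Nos1 in ctrl in estrus was 0.703 CPM in replicate 5, against 2.45 to 2.98 CPM in the other libraries of the group. This is the library that stood apart in Nos2 as well. Ddah2 in ctrl in estrus was 63.6 CPM in replicate 4, against 42.3 to 48.0 CPM in the others. The Nos2 value of 2.11 CPM in ctrl estrus replicate 5 did not reach the limit because the other libraries of the group were themselves spread from 16.4 to 28.8 CPM.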

How the results depend on the processing

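The number of members called depended on the alternative as follows. Between the lines in estrus it rose from 0 to 1 (Arg1) with all genes of at least 1 count, with DESeq2 and in the fit of all 20 libraries. Between the lines in diestrus it fell from 1 to 0 in the fit of all 20 libraries. Between the stages in ctrl it rose from 0 to 1 in that fit, and in FL1 it fell from 4 to 2 in that fit and in the fit of 19 libraries, and to 3 with at least 10 counts in every library and limma-voom (without Arg1) and with the replicate block (without Ddah1). Over both lines it fell from 2 to 1 with all genes of at least 1 count and with the replicate block, and rose to 3 with DESeq2. With 1 library left out it was 0 to 1 between the stages in ctrl, 2 to 4 in FL1, 0 to 1 between the lines over both stages and 1 to 3 between the stages over both lines.

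Deviations of same-numbered libraries correlated at -0.095 to 0.126, and 1 of the 20 pairs was over 0.1. In each comparison of 2 groups, 1 or 2 libraries correlated best with the library of their own number. The replicate numbers were not treated as pairs, and whether they mark a shared batch cannot be told from these values. With the replicate block, the Ddah1 call in FL1 (log2FC -0.54, edgeR adjusted p = 0.0514) and the Nos3 call over both lines (log2FC -0.41, edgeR adjusted p = 0.0578) were lost, the latter also with all genes of at least 1 count (edgeR adjusted p = 0.0869). Signs turned in the block for Nos2 between the lines in estrus (0.036), Nos1 and Asl between the stages in FL1 (-0.0013 and -0.019) and Ass1 between the lines over both stages (0.038).

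Differences near 0 turned sign elsewhere too. With limma-voom this held for Nos2 between the lines in estrus (0.12), Asl between the stages in ctrl (-0.045), Nos1 between the stages in FL1 (-0.16), Nos1 between the lines over both stages (-0.12), Asl between the stages over both lines (-0.020) and the interaction of Asl (0.049). It held for Ddah1 between the lines in diestrus with at least 10 counts in every library (-0.00016), and for Asl between the stages in FL1 with all genes of at least 1 count (-0.0037), DESeq2 (-0.00028) and the fit of 19 libraries (-0.0022). The fit of 19 libraries also turned Asl between the stages in ctrl (-0.050) and Nos3 between the lines in estrus (0.055). The cause was not tested.

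With 1 library left out, values that crossed 0 were, between the lines in estrus, Nos1 (-0.63 to 0.015), Nos2 (-0.47 to 0.013), Nos3 (-0.25 to 0.056) and Asl (-0.079 to 0.15), and in diestrus Arg2 (-0.44 to 0.28), Asl (-0.00046 to 0.14), Ddah1 (-0.15 to 0.26) and Ddah2 (-0.087 to 0.062). Between the stages they were in ctrl Arg2 (-0.66 to 0.077), Asl (-0.066 to 0.13) and Ddah2 (-0.0043 to 0.19), and in FL1 Nos1 (-0.24 to 0.46) and Asl (-0.13 to 0.084). In the fits of all libraries they were Nos1 (-0.17 to 0.20) and Ass1 (-0.23 to 0.092) between the lines, Nos2 (-0.22 to 0.0032) and Asl (-0.045 to 0.062) between the stages, and Asl (-0.16 to 0.070) and Ddah1 (-0.059 to 0.35) in the interaction. None of these crossed with a call.

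With settings other than leaving out each library in turn, calls over all genes changed by more than 1.5 times as follows. Between the lines in estrus they went from 311 to 477 (at least 1 count), 670 (DESeq2), 531 (all 20) and 514 (19 libraries). In diestrus they went from 545 to 846 and 891 (at least 1 count and DESeq2). Between the stages in ctrl they went from 380 to 771, 909 and 980 (DESeq2, all 20 and 19 libraries). In the interaction they went from 8 to 17, 148 and 3 (at least 1 count, DESeq2 and limma-voom). With 1 library left out they were 175 to 418 between the lines in estrus (fewer by over 1.5 times without FL1 estrus replicate 1, 2, 4 or 5), 349 to 594 in diestrus (likewise without FL1 diestrus replicate 4), 176 to 516 between the stages in ctrl (likewise without ctrl estrus replicate 2 or 4 or ctrl diestrus replicate 2, 3 or 4) and 0 to 15 in the interaction. Calls among the pathway genes between the lines in diestrus rose from 0 to 3, 2, 1 and 2 with at least 1 count, DESeq2, all 20 and 19 libraries.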

Other observations

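Without ctrl estrus replicate 5, Arg1 also passed the test between the stages over both lines (log2FC 1.44, edgeR adjusted p = 0.0252), which it did not with all libraries (log2FC 1.28, edgeR adjusted p = 0.0855). Ddah2 passed it without ctrl diestrus replicate 1 (log2FC 0.30, edgeR adjusted p = 0.0304).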
